A study of Mus musculus with 5 samples.

Results

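The comparison described here sets 1 embryoid body culture beside the embryonic stem (ES) cell line it was made from, over the microRNAs (miRNAs) of 1 array each. V6.5 ES is a wild-type mouse ES line grown with leukaemia inhibitory factor (LIF), a cytokine that holds ES cells in the undifferentiated state. The embryoid body (EB) was V6.5 kept floating for 1 week in medium lacking LIF, a setting in which ES cells aggregate and begin to form cells of all germ layers. These 2 of the 5 arrays of the series were chosen by their sample titles, and all 1265 mouse miRNA spots were read. The other 3 arrays, all of ES cells with LIF, served to judge how far ES arrays lie apart. PKM1 KI ES is labelled as a knock-in of PKM1, an isoform of pyruvate kinase. In the lines 2TS22c and ZHBTc4, Sox2 and Oct3/4, respectively, can be shut off with a drug; the labels state no drug. Each group was 1 array of total RNA from 1 culture, so EB against V6.5 ES has no replicate and no test, and the values describe 2 arrays. An EB is a mixture, and fewer cells of a type and less of a miRNA per cell cannot be told apart in its RNA.

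A miRNA is a short RNA that guides repression of messenger RNAs, mainly through its seed, bases 2 to 8 counted from the 5′ end. Mouse ES cells are known for the miR-290-295 cluster, whose main seed promotes passage through the cell cycle, and the related miR-302 and miR-367 cluster becomes prominent as cells move to the primed, post-implantation state. On differentiation the let-7 family and the miR-125, miR-99 and miR-100 group are known to accumulate, and lineage miRNAs such as miR-124 and miR-9 in neural cells or miR-1 and miR-133 in muscle mark later cell types.

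Several of the miRNAs described below differ by few bases or share a seed, and their mature sequences (RefSeq, GRCm38.p6) are given for that reason, 5′ to 3′ with the seed in capitals. The ES-cell seed is shared by members of both ES clusters.
miR-294-3p: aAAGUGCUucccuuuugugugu
miR-291a-3p: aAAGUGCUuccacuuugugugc
miR-295-3p: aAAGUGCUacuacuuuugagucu
miR-302b-3p: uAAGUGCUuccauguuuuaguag
miR-302d-3p: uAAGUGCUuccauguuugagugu
The miR-17 seed, found in a cluster that ES cells share with most dividing cells, holds 6 of the same letters moved by 1 place.
miR-17-5p: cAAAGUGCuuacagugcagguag
miR-106b-5p: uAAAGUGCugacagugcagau
The next miRNAs were higher on the EB array than on V6.5 ES, or seen on the EB and not on V6.5 ES, and carry other seeds. Among them, miR-301a-3p and miR-130a-3p lay within the range of the ES arrays. miR-99a-5p and miR-100-5p differ at 1 base, position 16 from the 5′ end.
miR-99a-5p: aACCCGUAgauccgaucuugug
miR-100-5p: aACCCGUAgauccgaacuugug
miR-125a-5p: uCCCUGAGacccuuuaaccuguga
miR-125b-5p: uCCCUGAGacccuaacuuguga
miR-9-5p: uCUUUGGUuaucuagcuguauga
miR-181a-5p: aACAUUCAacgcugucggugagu
miR-301a-3p: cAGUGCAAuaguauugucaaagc
miR-130a-3p: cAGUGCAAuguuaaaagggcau
The spot highest against V6.5 ES, the lowest one, and 2 members of the repeat-rich families that were lower complete the set.
miR-711: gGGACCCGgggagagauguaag
miR-29a-3p: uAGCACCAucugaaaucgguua
miR-466j: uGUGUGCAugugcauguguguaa
miR-466k: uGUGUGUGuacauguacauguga
The miR-290-295 cluster lies at chr7:3218639-3220837 and the miR-302 and miR-367 cluster at chr3:127545238-127545800, both on the plus strand of GRCm38.p6. miR-711 lies at chr9:108969970-108969991 on the plus strand and miR-29a-3p at chr6:31062673-31062694 on the minus strand. Of the 1265 spots, 1024 were matched by name to a mature sequence.

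The EB and V6.5 ES arrays were alike. A miRNA counted as detected where its spot exceeded the blank spots' mean by more than 2 of their SD, which held for 750 miRNAs on the EB array and 754 on V6.5 ES. A total of 654 were detected on both, 96 on the EB only and 100 on V6.5 ES only. Most of the latter were close to the limit: 7 of the 96 and 5 of the 100 also passed a limit set on the negative control spots. Values below are normalised log2 signals. Over the 654 miRNAs the median EB minus V6.5 ES difference was 0.01, its SD 0.28, and Pearson's r 0.979. Of the 654, 339 were higher on the EB, 300 lower and 15 equal. miRNAs of 1 array pair are not independent replicates.

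Of 850 miRNAs detected on at least 1 of both arrays, 3 (0.353%) were at least 2-fold apart, and 1.5-fold was therefore used as well. At that fold 16 (1.88%) were higher and 24 (2.82%) lower on the EB array, counting a miRNA seen on 1 array only at its bound, which is the bright signal against the lowest detectable one. Among the 16 higher, 14 (1.65% of 850) were also above all 4 ES arrays, and among the 24 lower, 19 (2.24%) were below all 4. Without a fold, 141 of the 654 (21.6%) lay above all 4 ES arrays and 101 (15.4%) below. In the plot of difference against signal, miR-711 and miR-2137 stand out among bright spots and the lower miRNAs gather between log2 7 and 9.

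**Figure D1:**
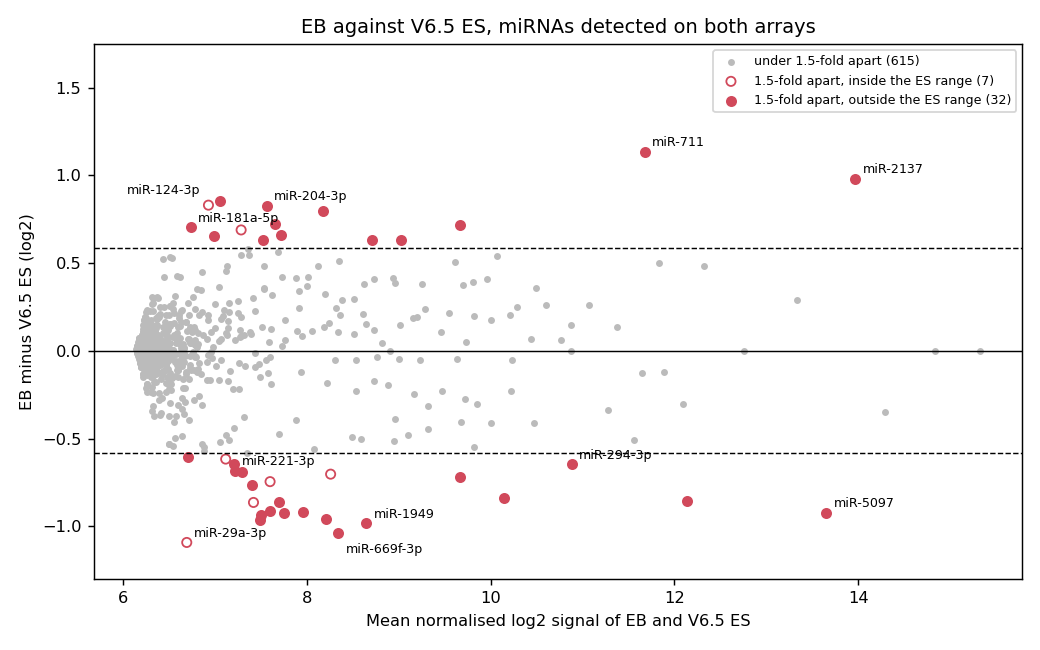
EB minus V6.5 ES in normalised log2 signal (vertical axis) against the mean of both arrays (horizontal axis) for the 654 miRNAs detected on both, 1 point each; dashed lines mark 1.5-fold. miR-711 is the highest point at 1.13 and miR-29a-3p the lowest at -1.09; filled points lie outside the range of the 4 ES arrays.

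These counts compare with the spread between ES arrays as follows. PKM1 KI ES and V6.5 ES were at least 1.5-fold apart for 19 of 874 miRNAs (2.17%), and 2TS22c and ZHBTc4 ES for 5 of 613 (0.816%). The EB and PKM1 KI ES were that far apart for 29 of 859 (3.38%). The lines 2TS22c and ZHBTc4 differed from V6.5 ES for 134 of 804 (16.7%) and 111 of 805 (13.8%). The EB array thus differed from V6.5 ES in more miRNAs at this fold than PKM1 KI ES did, and in fewer than the other ES lines did. The arrays of 2TS22c and ZHBTc4 detected fewer miRNAs, 507 (40.1%) and 520 (41.1%). PKM1 KI ES detected 763 (60.3%), V6.5 ES 754 (59.6%) and the EB 750 (59.3%). The part of detection in these counts and in the ES range was not tested. The spread between the 8 spots of a control probe on 1 array was smaller, an SD of 0.05 to 0.16 for the spike controls and 0.04 to 0.18 for the negative controls. The detector gain was 43 for the EB array, 46 for 2TS22c and 47 for the other 3, and ZHBTc4 was on a chip of its own; gain and group cannot be told apart.

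The 4 ES arrays were of different lines and not replicates of 1 culture. The 1 test that the arrays allow set the EB against them as a group, with limma and Benjamini-Hochberg adjustment. This test counts line differences as spread and assumes that the single EB array varies as the ES arrays do. It called 0 of 959 miRNAs (0%), with 15 higher and 9 lower at an unadjusted p under 0.05. The 5 miRNAs of lowest p were miR-99a-5p, miR-1949, miR-9-5p, miR-6394 and miR-100-5p. The lowest limma adjusted p was 0.676, for miR-99a-5p, which was higher on the EB than on 4 of 4 ES arrays. No ES array detected it, so its ES values lie at the floor and the size is a bound, at least 1.43-fold over V6.5 ES. An exact permutation of 1 array against 4 cannot give a p below 0.2. Nothing below passed a test, and "higher" and "lower" state which array had the larger value.

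The miR-290-295 cluster was slightly lower on the EB array. All 14 spots were detected on both arrays. Of these, 13 were lower than on V6.5 ES and 11 below all 4 ES arrays, beside 15.4% of all 654 miRNAs. The median difference was -0.26. miR-294-3p, the brightest member and a main carrier of the ES-cell seed, had a log2 signal of 11.21 on V6.5 ES, 11.31 on PKM1 KI ES, 12.56 on 2TS22c, 12.56 on ZHBTc4 and 10.56 on the EB. The EB value was the lowest of the 5 and 1.57-fold below V6.5 ES. Its direction turned with 2 alternatives, to 0.46 with local background subtraction and to 0.047 when scaled to the spike controls, a scaling that raised the median of all miRNAs on the EB by 0.20.

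Its neighbours lay the same way. miR-291a-3p read 10.09, 9.92, 11.31, 11.58 and 9.54 on V6.5, PKM1 KI, 2TS22c, ZHBTc4 and the EB. miR-295-3p read 10.68, 10.56, 12.25, 12.08 and 10.26 in that order. Both were lowest on the EB array, by less than the distance between V6.5 ES and the 2TS22c and ZHBTc4 lines. Among the 5p arms, miR-290-5p was lowest against V6.5 ES, at 8.86 after 9.34, a difference of -0.48 that turned to 0.038 with spike scaling. miR-291b-3p, a dim 3p arm, was the 1 member that was higher and above all 4 ES arrays, by only 0.0034 over V6.5 ES. Split by arm after the values were seen, the 7 3p arms had a median of -0.41 and the 7 5p arms -0.22. The 3p median turned to 0.46 with local background, and with spike scaling the medians were 0.097 for 3p and 0.038 for 5p. The median of the whole cluster was -0.02 for PKM1 KI, 1.19 for 2TS22c and 1.14 for ZHBTc4 ES against V6.5 ES, so the step to the EB was larger than that to PKM1 KI ES and smaller than those to 2TS22c and ZHBTc4. That median stayed below 0 in each processing tried except the spike scaling (0.048, beside the shift of 0.20).

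The miR-302 and miR-367 cluster was not higher on the EB array. Of its 10 spots 7 were detected on both arrays, 5 of them lower and 2 higher, with a median of -0.38, and none was outside the range of the ES arrays. miR-302d-3p read 8.08 on V6.5, 9.16 on PKM1 KI, 6.31 on 2TS22c, 6.03 on ZHBTc4 and 7.68 on the EB. miR-302a-3p read 7.50, 8.91, 6.06, 5.97 and 7.13 in the same order. The EB therefore sat between V6.5 ES and the 2TS22c and ZHBTc4 lines. miR-367-3p, which carries another seed, was the lowest member against V6.5 ES, at 6.60 after 7.13. The cluster's median turned to 0.19 with local background and was -1.06 measured from PKM1 KI ES.

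**Figure D2:**
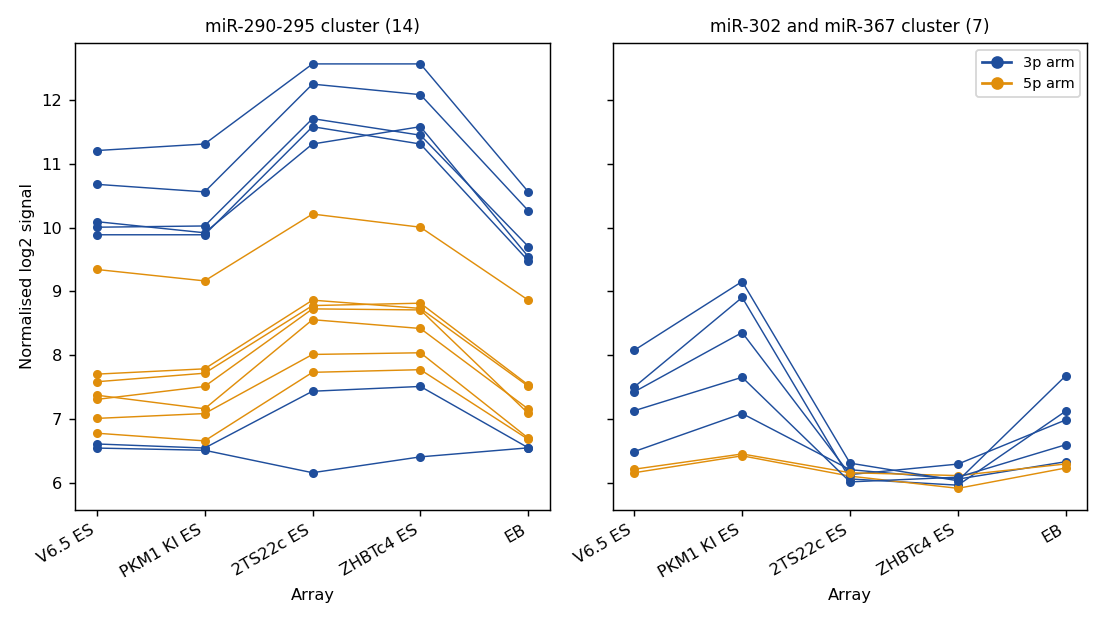
Normalised log2 signal on each of the 5 arrays for the 14 spots of the miR-290-295 cluster (left) and the 7 spots of the miR-302 and miR-367 cluster detected on both EB and V6.5 ES (right); lines join the values of 1 spot, blue for 3p and orange for 5p arms. The bright miR-290-295 spots are lowest on the EB, and the miR-302 spots are highest on PKM1 KI ES and near the floor on 2TS22c and ZHBTc4.

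The miR-17-92 cluster and its relatives, which drive proliferation, moved little. Of 23 spots detected on both arrays 14 were higher and 9 lower on the EB, with a median of 0.09 and none 1.5-fold apart; the median turned to -0.06 with local background. miR-17-5p read 9.92 on V6.5, 9.75 on PKM1 KI, 10.95 on 2TS22c, 10.95 on ZHBTc4 and 10.09 on the EB. The EB value lay within the ES range. miR-363-3p, of the X-linked cluster, was the farthest at 7.55 after 7.01 on V6.5 ES, above all 4 ES arrays, with its 5p arm at 7.64 after 7.09. The difference of miR-363-3p, 0.55, was 0.062 with local background. miR-18b-3p was the lowest at 6.39 after 6.58.

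Grouped by seed, the ES-cell family was lower on the EB than on V6.5 ES, and the proliferation family higher, within the ES range. Of the 503 miRNAs that were detected on both arrays and matched to a sequence, 51 fell into 12 seed families of at least 3 members. The 5 miRNAs with the seed AAGUGCU (miR-291a, miR-294, miR-295, miR-302b and miR-302d, all 3p) were all lower, from -0.65 to -0.40 with a median of -0.44. The 6 with the seed AAAGUGC (miR-17, miR-20a, miR-20b, miR-93, miR-106a and miR-106b, all 5p) were all higher, from 0.05 to 0.48 with a median of 0.15. Against V6.5 ES the first median was 0.10 for PKM1 KI, 1.22 for 2TS22c and 1.36 for ZHBTc4 ES. The second was -0.31, 1.03 and 1.04 in that order, each step larger than that of the EB. No member of the second family lay above all 4 ES arrays, and 3 of the first lay below all 4. With local background subtraction both EB medians turned, to 0.46 and -0.26, and with spike scaling the first was 0.03 and the second 0.62. Within a family the median SD was 0.20, beside 0.28 over all miRNAs. Members of a family can bind each other's probes, and this was not tested.

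The let-7 family, which matures as stem cells differentiate, was not higher on the EB than on V6.5 ES. Of 7 members detected on both, 5 were lower and 2 higher, with a median of -0.11 that turned to 0.09 with spike scaling. let-7a-5p read 6.75 on V6.5, 6.34 on PKM1 KI, 6.39 on 2TS22c, 6.35 on ZHBTc4 and 6.62 on the EB. V6.5 ES was the highest of the 5 arrays for it and the EB the next. The family's median against V6.5 ES was -0.33 for PKM1 KI, -0.27 for 2TS22c and -0.39 for ZHBTc4 ES, so V6.5 ES was the high array, and measured from PKM1 KI ES the EB median turned to 0.27. let-7e-5p was the member farthest up, at 6.58 after 6.33 on V6.5 ES, and let-7b-5p the farthest down, at 6.41 after 6.63. let-7g-5p was detected on V6.5 ES alone of the 5 arrays, at least 1.16-fold above the EB.

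The miR-125, miR-99 and miR-100 group was higher. All 5 spots were detected on the EB array and 3 on V6.5 ES, and those 3 were higher on the EB with a median of 0.36, which became -0.053 with local background. miR-99a-5p read 5.93 on V6.5, 6.02 on PKM1 KI, 5.94 on 2TS22c, 5.99 on ZHBTc4 and 6.66 on the EB. The bound over V6.5 ES was at least 1.43-fold, and the EB spot passed the stricter limit. miR-100-5p read 6.12, 5.94, 6.04, 6.06 and 6.66 in that order and was likewise seen on the EB only. Their probes target nearly the same sequence, so they are not 2 independent observations. Among the others, miR-99b-5p read 6.83 after 6.41 on V6.5 ES, miR-125a-5p 7.23 after 6.86 and miR-125b-5p 7.99 after 7.91. miR-125a-5p was above all 4 ES arrays, and miR-99b-5p was not, since 2TS22c read 6.84.

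The opposite arm of the same hairpin, miR-125a-3p, was lower, as found after its value was seen. It read 10.02 on V6.5, 9.80 on PKM1 KI, 10.88 on 2TS22c, 10.88 on ZHBTc4 and 9.31 on the EB, below all ES arrays and 0.72 below V6.5 ES. miR-6394, which carries the same seed as miR-125a-5p and lies elsewhere in the genome, read 7.29, 7.39, 7.45, 7.41 and 8.01, 1.65-fold higher than V6.5 ES. The 4 ES arrays lay close together for it and the EB was clearly apart, which placed it among the 5 lowest limma p values.

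The neural miRNAs were divided between both directions. The list of 15 had 11 detected on at least 1 array and 8 on both, 4 higher and 4 lower, with a median of 0.05. miR-124-3p, which is enriched in neurons, read 6.63 on V6.5, 6.16 on PKM1 KI, 7.23 on 2TS22c, 7.16 on ZHBTc4 and 7.49 on the EB. The EB was highest, 1.81-fold above V6.5 ES but only 0.26 above 2TS22c. Its log2 difference from V6.5 ES, 0.85, was 0.31 with local background. miR-9-5p, of neural progenitors, read 6.12, 6.14, 6.27, 6.06 and 6.86; V6.5 ES did not detect it, and the EB was at least 1.65-fold higher. Its 3p arm read 6.18, 6.07, 6.21, 6.18 and 6.44 and was also highest on the EB. miR-128-3p, abundant in brain, read 6.32 on the EB and 6.14 on V6.5 ES. In the other direction miR-7a-5p, found in neural and endocrine cells, read 7.01 on V6.5, 6.64 on PKM1 KI, 7.42 on 2TS22c, 7.27 on ZHBTc4 and 6.41 on the EB, lowest of the 5 arrays. miR-137-3p, miR-153-3p, miR-135a-5p and miR-7b-5p were not detected on either array.

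Markers of the other germ layers were mostly below the detection limit. Of 8 miRNAs of heart and muscle 3 were detected on both arrays, miR-133a-3p, miR-133b-3p and a spot shared by miR-486-5p and miR-3107-5p, with differences from 0.07 to 0.16; miR-1a-3p, miR-206-3p and miR-499-5p were detected on neither. Of 8 of endoderm, liver and gut only miR-192-5p and miR-194-5p were detected, at -0.05 and 0.04, and miR-122-5p and miR-375-3p were not. Among 10 of blood and endothelium 4 were detected on both, with a median of 0.04; miR-126-3p, of endothelium, read 6.32 on the EB and 6.24 on V6.5 ES, and miR-451a, of red cells, was not detected on either. Dim spots such as these lie close to the floor of the scale, where the added offset shrinks differences.

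miRNAs of mesenchyme, which also mark feeder fibroblasts, were detected on V6.5 ES as well as on the EB. All 16 were detected on at least 1 of the arrays and 14 on both, 8 higher and 6 lower, with a median of 0.05. miR-21a-5p read 7.95 on PKM1 KI, 7.41 on 2TS22c, 7.36 on ZHBTc4 and 7.88 on the EB, which was 0.12 below V6.5 ES, above it by 0.62 with local background and by 0.18 with spike scaling. The spot shared by miR-199a-3p and miR-199b-3p read 7.23, 6.60, 5.87, 6.24 and 7.31. The signals of both were higher on V6.5 ES and the EB than on 2TS22c and ZHBTc4. Over the whole list the median against V6.5 ES was -0.21 for PKM1 KI, -0.04 for 2TS22c and -0.12 for ZHBTc4 ES. The labels name no feeder cells, and the part of feeder cells in these values was not tested. miR-221-3p, which restrains an inhibitor of the cell cycle, stood apart from the list at 7.56 on V6.5, 7.37 on PKM1 KI, 7.61 on 2TS22c, 7.59 on ZHBTc4 and 6.88 on the EB. It was 1.61-fold lower on the EB than on V6.5 ES and 0.50 below the lowest ES array.

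The miR-29 family, abundant in fibroblasts and other mature cells, was lower on the EB than on V6.5 ES. miR-29a-3p read 7.24 on V6.5, 6.98 on PKM1 KI, 6.27 on 2TS22c, 6.14 on ZHBTc4 and 6.15 on the EB, 2.13-fold below V6.5 ES and near the EB's detection limit. miR-29b-3p read 6.76, 6.24, 6.21, 6.22 and 6.24. V6.5 ES was the high array for both, and the EB was within the range of the other ES arrays. The direction for miR-29a-3p was the same in every processing tried, whereas the -0.53 of miR-29b-3p turned to 0.049 with local background.

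Other families known from dividing and differentiating cells were higher on the EB, mostly within the range of the ES lines. The 4 members of miR-130 and miR-301 were all higher, with a median of 0.44, beside -0.04 for PKM1 KI, 0.62 for 2TS22c and 0.70 for ZHBTc4 ES against V6.5 ES. miR-301a-3p read 6.52 on V6.5, 6.44 on PKM1 KI, 7.29 on 2TS22c, 7.39 on ZHBTc4 and 7.35 on the EB. miR-107-3p, of the miR-15, miR-16, miR-103 and miR-107 group that acts on the cell cycle and metabolism, read 6.94, 6.92, 7.88, 7.67 and 7.63. For both miRNAs the EB lay with 2TS22c and ZHBTc4 and apart from V6.5 and PKM1 KI ES. That group had 6 of 7 members higher and a median of 0.23.

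The miR-181 family, known from blood and muscle differentiation, was higher for 4 of 4 members, with a median of 0.42. Against V6.5 ES the same median was -0.16 for PKM1 KI, 0.32 for 2TS22c and 0.47 for ZHBTc4 ES. On V6.5 ES 1 of the 4 passed the negative control limit. miR-181a-5p read 6.38 on V6.5, 6.16 on PKM1 KI, 6.52 on 2TS22c, 6.76 on ZHBTc4 and 7.09 on the EB. The EB was highest of the 5 and 1.63-fold above V6.5 ES, a difference of 0.71 that was 0.17 with local background. miR-181b-5p was also above all ES arrays, at 6.80 after 6.27 on V6.5 ES, and miR-181c-5p was not, at 6.45 beside 6.91 on ZHBTc4. The miR-200 family, which maintains epithelial cells, had 5 of 5 members higher than on V6.5 ES, by 0.09 to 0.32. Of these, 4 were above all ES arrays, beside 21.6% of all 654 miRNAs. miR-200c-3p read 6.72 after 6.41 on V6.5 ES. The direction of the medians of these 2 families was the same in every processing tried.

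Of 9 miRNAs reported to act on Oct4, Sox2 or Nanog, 7 passed the detection limit on V6.5 ES and 5 on the EB. Those 5 were seen on both arrays, 4 higher and 1 lower, with a median of 0.21 and none 1.5-fold apart. miR-183-5p and miR-470-5p passed the limit on V6.5 ES but fell below it on the EB. miR-145a-5p, which represses pluripotency factors in human ES cells, read 6.30 on V6.5, 6.29 on PKM1 KI, 6.31 on 2TS22c, 6.14 on ZHBTc4 and 6.51 on the EB. The EB was the highest, by 0.20 over the highest ES array. The imprinted Dlk1-Dio3 cluster, whose expression separates fully from partly pluripotent cells, was level: of 58 spots detected on both arrays 27 were higher, 29 lower and 2 equal, with a median of 0.00 and none 1.5-fold apart. miR-127-3p of that cluster read 6.76 on the EB and 6.70 on V6.5 ES. The hypoxia miRNA miR-210-3p read 6.66 on the EB and 6.59 on V6.5 ES.

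**Figure D3:**
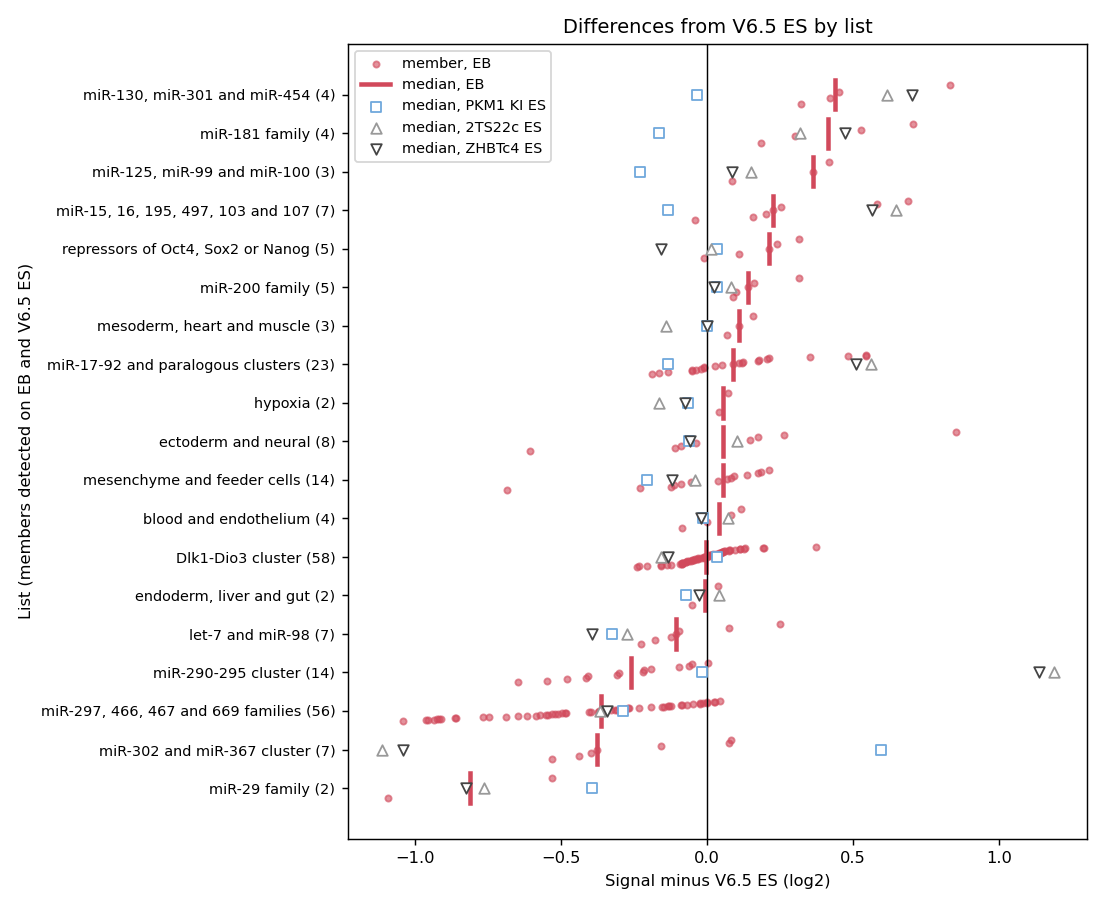
EB minus V6.5 ES in log2 (horizontal axis) for the members of each of 19 lists detected on both arrays (red points, with the number in parentheses and a red bar at the median); open symbols are the medians of the same members for the other ES arrays minus V6.5 ES. The EB medians run from -0.81 for the miR-29 family to 0.44 for miR-130 and miR-301, and for the families of miR-466, miR-467, miR-669 and miR-297 all 4 medians lie between -0.37 and -0.29.

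Most of the miRNAs at least 1.5-fold lower were of the families of miR-466, miR-467, miR-669 and miR-297, which largely come from a repeated unit in an intron of Sfmbt2. Of 71 spots 56 were detected on both arrays, 51 lower, 3 higher and 2 equal, with a median of -0.36. Of the 24 miRNAs at least 1.5-fold lower on the EB 14 were of these families (14 of 60 tested, beside 2.82% of all 850), and 18 of the 56 were below all 4 ES arrays, beside 15.4% of all 654. miR-669f-3p, the farthest, read 8.86 on V6.5, 8.13 on PKM1 KI, 7.98 on 2TS22c, 8.12 on ZHBTc4 and 7.82 on the EB. miR-467a-3p read 7.97, 7.24, 7.35, 7.38 and 7.04, and miR-466j read 7.64 on V6.5 ES and 6.95 on the EB.

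For these families V6.5 ES was the array that stood apart. The median of the same 56 spots against V6.5 ES was -0.29 for PKM1 KI, -0.37 for 2TS22c and -0.34 for ZHBTc4 ES, beside -0.36 for the EB. All 4 comparisons share the V6.5 ES array. Measured from PKM1 KI ES, the EB median was -0.088. miR-669f-3p was 1.04 below V6.5 ES on the EB and 0.16 below the lowest of the other ES arrays. G and U make up 73.9% of the bases of miR-466j, 69.6% of those of miR-466k and 13.6% of those of miR-466i-3p. Their differences from V6.5 ES were -0.69, -0.53 and -0.37, and the part of base content in them was not tested. miR-466j, miR-466k and miR-466i-3p map to chromosomes 10, 3 and 13, so they do not share 1 intron. Spots that come from a repeated unit are not independent observations.

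Single miRNAs outside the lists included the highest of all. miR-711 read 11.11 on V6.5, 10.95 on PKM1 KI, 9.59 on 2TS22c, 9.66 on ZHBTc4 and 12.25 on the EB, 2.20-fold above V6.5 ES and 1.13 above the highest ES array. miR-2137 read 13.48, 14.11, 11.94, 11.94 and 14.46, and PKM1 KI ES was only 0.35 below the EB. Quantile normalisation sets the values of so bright a spot by rank. The 0.98 of miR-2137 over V6.5 ES was 0.23 with local background, 0.69 with quantiles over 2 arrays and 1.25 with spike scaling. miR-204-3p, the less known arm of a hairpin of eye and epithelium, read 7.15, 7.42, 6.81, 6.98 and 7.98. miR-365-1-5p read 7.21, 7.24, 7.01, 6.96 and 7.84. miR-1934-3p, miR-5122, miR-6370, miR-5121, miR-1224-5p and miR-680 were 1.55-fold to 1.74-fold higher and above all ES arrays.

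Among single miRNAs that were lower, miR-1949 read 9.14 on V6.5, 8.86 on PKM1 KI, 9.14 on 2TS22c, 9.14 on ZHBTc4 and 8.16 on the EB. The ES arrays were nearly level and the EB was 0.70 below the lowest, but with local background subtraction the difference from V6.5 ES turned to 0.35. The very bright miR-5097 read 14.11, 13.48, 14.11, 14.11 and 13.19, and miR-6412 read 12.56, 11.94, 13.48, 13.48 and 11.71. Quantile normalisation gives such top spots values by rank, and the -0.92 of miR-5097 was -0.58 with median scaling, -0.39 with local background and -0.080 with spike scaling. The -0.86 of miR-6412 was -0.035 with spike scaling and -1.67 with local background. miR-6243 read 10.56 on V6.5 ES and 9.72 on the EB, the lowest of the 5 arrays. miR-706 read 8.61 on V6.5, 7.17 on PKM1 KI, 9.40 on 2TS22c, 9.42 on ZHBTc4 and 7.91 on the EB, inside an ES range wider than the EB difference.

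**Figure D4:**
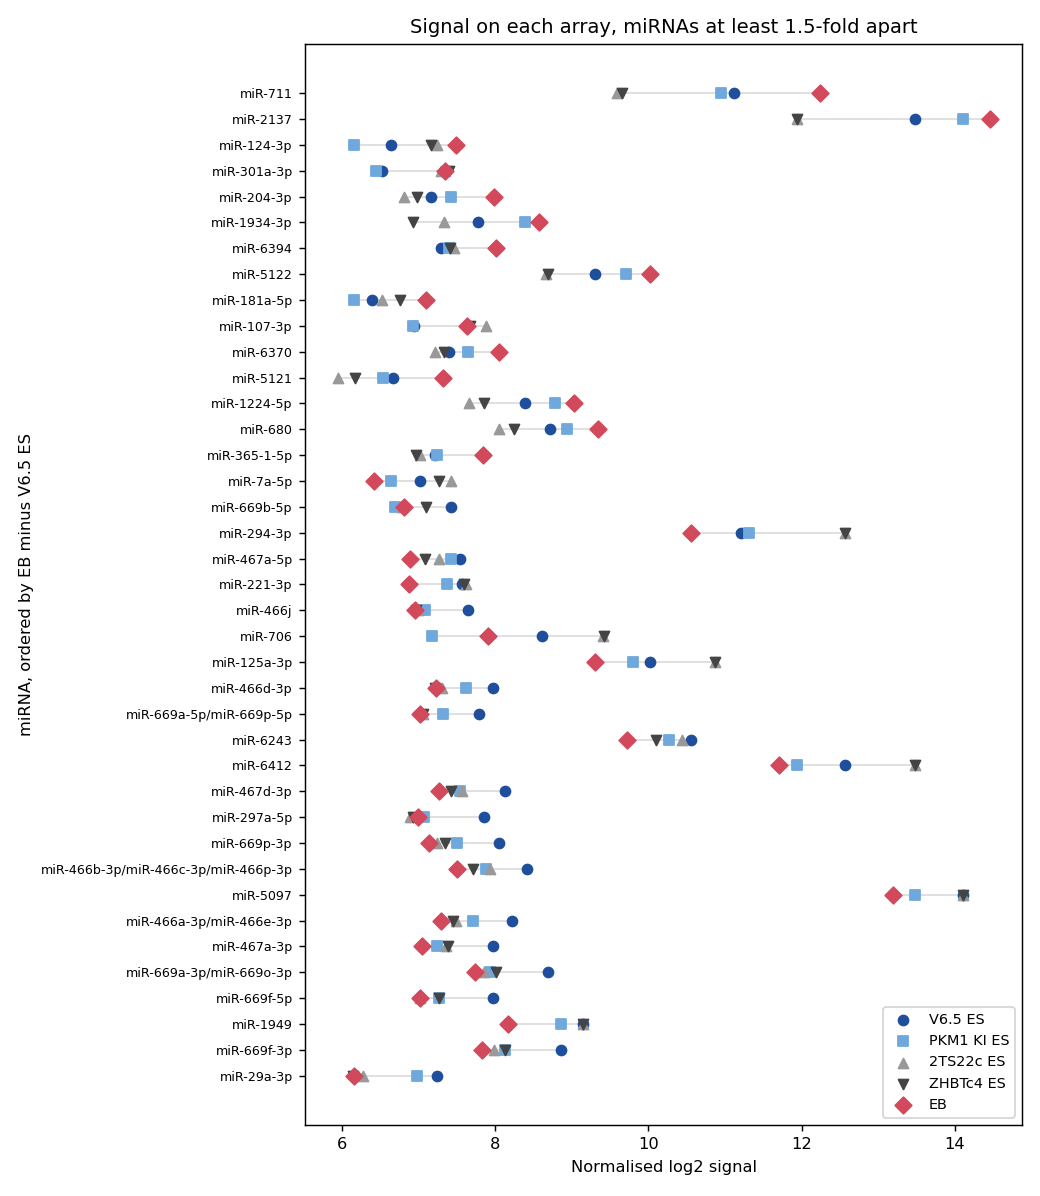
Normalised log2 signal (horizontal axis) on each of the 5 arrays for the 39 miRNAs detected on both EB and V6.5 ES and at least 1.5-fold apart, ordered by the difference. The EB (red diamonds) is at an end of the ES range for most of them, and V6.5 ES (blue circles) is at the opposite end for the miR-466, miR-467 and miR-669 spots.

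Among the miRNAs at least 1.5-fold apart that had a matched sequence, the higher ones had more G and C than the lower ones. A sequence was matched for 14 of the 15 higher miRNAs measured on both arrays, but for only 8 of the 24 lower ones. The median GC content was 62.8% for those 14 and 42.2% for those 8, beside 54.5% for all matched miRNAs detected on both arrays. Most miR-466, miR-467 and miR-669 spots had no matched sequence, so the 42.2% leaves out most of the main lower group. In 4 classes of rising GC content the median difference went from 0.00 (138 miRNAs, GC up to 47.6%) over 0.00 (117) and 0.04 (154) to 0.07 (94 miRNAs, GC from 65%). The same classes had medians of -0.05, -0.02, 0.05 and 0.09 for PKM1 KI against V6.5 ES, which shares the V6.5 array. The part of base composition in the higher and lower miRNAs was not tested.

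The arms of 1 hairpin come from the same precursor and can be set side by side. Both arms were measured for 130 hairpins. In 63 the arms lay the same way and in 61 opposite ways, and across hairpins Pearson's r between the 5p and 3p differences was 0.33, which became 0.037 with local background. Without the hairpins of those repeat-rich families and of the miR-290-295 cluster, left out after seeing the data, r was -0.070 over 110. Both arms were at least 1.5-fold lower for 2 hairpins, miR-669f (-0.96 and -1.04) and miR-467a (-0.65 and -0.93). The widest gap between arms was that of miR-125a, 0.36 for 5p and -0.72 for 3p. Its 3p value was -0.12 with spike scaling. The hairpin of miR-363, at 0.54 and 0.55, had both arms higher, though its 3p value was 0.062 with local background. The points share 2 arrays, and r is a description.

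miRNAs seen on 1 array only added few clear cases. Besides miR-9-5p, miR-99a-5p and miR-100-5p, the largest bounds on the EB side were those of miR-721 and miR-673-3p, each at least 1.15-fold, and miR-299a-5p at least 1.14-fold. On the V6.5 ES side they were at least 1.20-fold for miR-467g, 1.17-fold for miR-694 and for miR-758-5p, 1.16-fold for let-7g-5p and 1.14-fold for miR-101a-3p. miR-3066-5p, miR-369-3p, miR-19b-1-5p and miR-222-3p followed, each at 1.13-fold.

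How the differences held under other processing is drawn for the same 39 miRNAs. In 36 of them the direction was the same in 7 other ways of processing, and 12 stayed at least 1.5-fold apart in all of these. The 3 that turned were miR-294-3p, miR-1949 and miR-467d-3p. With PKM1 KI ES as the reference 11 of the 39 were 1.5-fold apart in the same direction. The 12 include miR-711, miR-204-3p, miR-1934-3p, miR-6394 and miR-5122 among the higher and miR-29a-3p, miR-669f-3p, miR-669f-5p, miR-467a-3p and miR-297a-5p among the lower.

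**Figure D5:**
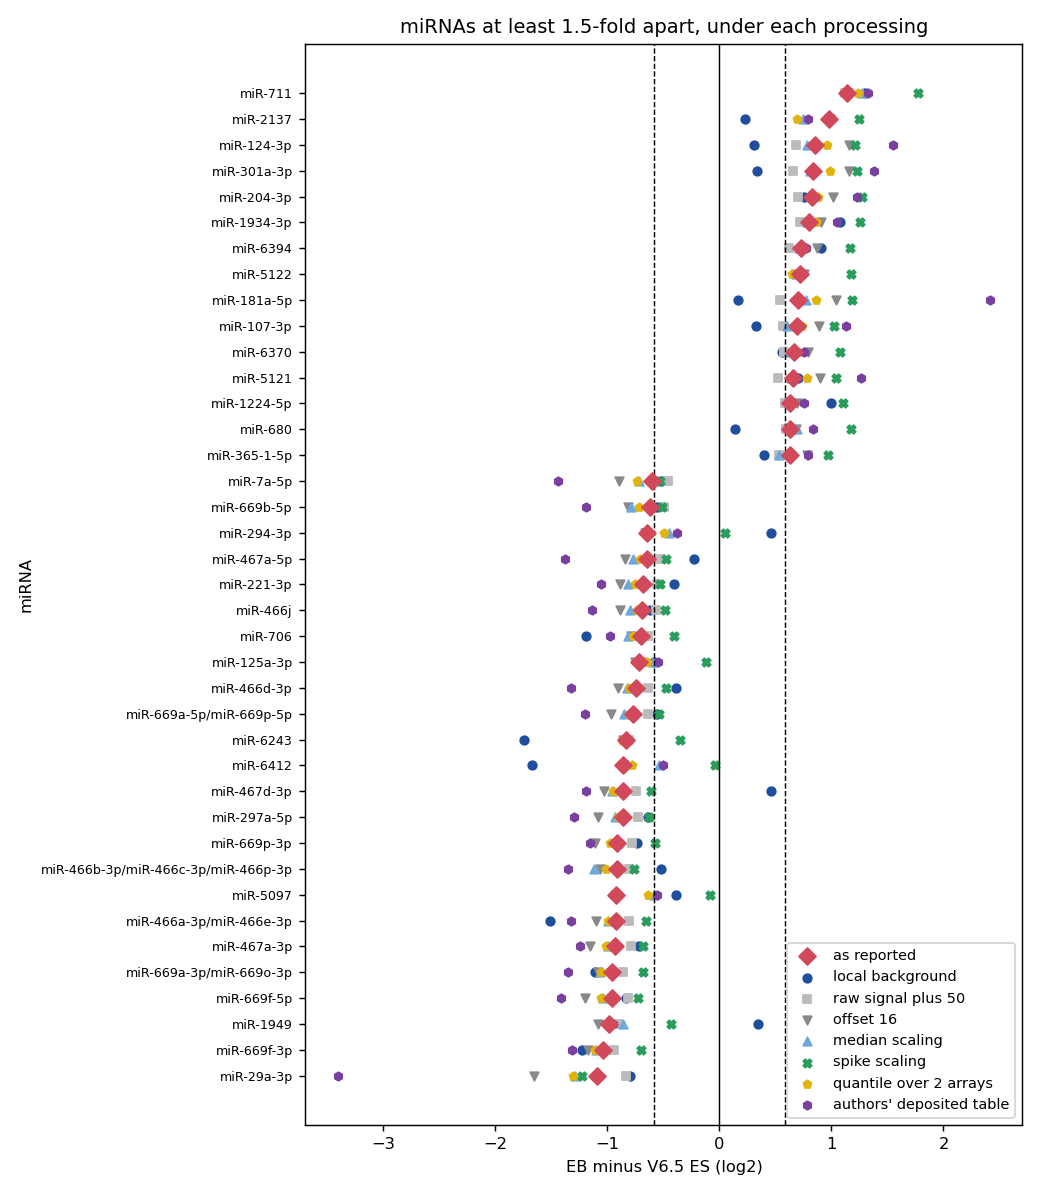
EB minus V6.5 ES in log2 (horizontal axis) for the 39 miRNAs at least 1.5-fold apart, as reported (red diamonds) and under 7 other ways of processing (other symbols); dashed lines mark 1.5-fold. miR-294-3p, miR-1949 and miR-467d-3p cross 0 with local background subtraction, and the authors' deposited table spreads dim miRNAs such as miR-29a-3p the widest.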

How the data were processed

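Total RNA labelled with Hy5 was hybridised to 1-colour arrays (mouse miRNA design version 19, read at 635 nm, per the file headers). The deposited scanner files give each spot's intensity as a pixel median with no background removed, per the file headers. A further table deposited by the authors holds processed intensity values with a median of 25 on each array; how it was made is not given in the sources used here. Intensities were corrected with limma 3.58.1 (R 4.3.3; normexp fitted on all spots, offset 50), quantile-normalised across the 5 arrays on 1265 miRNA spots and expressed as log2; the log2 values come from the deposited intensities. The offset shrinks differences of dim miRNAs. Raw intensities are not compared between arrays, since gains differed. Array number, at 1 per group, limits the precision of every value.

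Lists, families and members were chosen with earlier results of these data known. Named miRNAs are, per direction, the 12 farthest past 1.5-fold and outside the ES range, the 6 farthest inside it, the 6 largest bounds among those seen on 1 array, the extremes and best known member of each list, and the 5 lowest limma p; further list and family members are given as examples. The list names miR-21-5p and miR-145-5p were read as the arrays' miR-21a-5p and miR-145a-5p, and the best known members were set, after the values were seen. The limma test was also run on simulated data, and its outcome there is not reported here. Whether it would call differences as small as those described above was not tested. In the alternatives that scale to the median or to the spike controls, the offset was at first added before scaling; this order was changed after its result (631 limma calls with spike scaling) had been seen, since a floor belongs after scaling.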

Additional observations from a re-analysis of the deposited data

How the results depend on the processing

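Counts past a fold depended on the processing. At 2-fold, with 1 higher and 2 lower as reported, the counts were 9 and 11 with local background, 6 and 11 with an offset of 16, 17 and 1 with spike scaling, 33 and 87 in the authors' deposited table, and 2 and 4 against PKM1 KI ES; the lower count was 0 for raw signal plus 50, 5 with median scaling, 6 with quantiles over 2 arrays and 1 with the negative control limit. At 1.5-fold, with 16 higher and 24 lower, they were 32 and 43 with an offset of 16, 93 and 9 with spike scaling, and 98 and 149 in the authors' deposited table; the higher count was 40 with local background, 9 for raw signal plus 50 and 25 with quantiles over 2 arrays, and the lower one 8 against PKM1 KI ES. For miRNAs past 1.5-fold and outside the ES range, with 14 and 19, the higher count was 8 for raw signal plus 50, 25 with an offset of 16, 91 with spike scaling and 73 in the authors' table, and the lower one 0 with spike scaling and 60 in the authors' table. Leaving out the PKM1 KI, 2TS22c or ZHBTc4 array gave 14 to 15 higher and 19 to 21 lower.

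limma called 0 miRNAs in each alternative run, and 0 with any 1 ES array left out, except when the offset was added before spike scaling, an order used at first and dropped after its result was seen: 631 were then higher. With the offset after spike scaling, 90 were higher and 0 lower at an unadjusted p under 0.05.

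The shared shift under spike scaling was 0.20. The list medians that it moved by more than the SD between PKM1 KI and V6.5 ES became 0.048 for miR-290-295, -0.12 for miR-302 and miR-367, 0.47 for miR-17-92, 0.75 for miR-125, miR-99 and miR-100, 0.46 for the miRNAs acting on Oct4, Sox2 or Nanog, 0.35 for heart and muscle, 0.30 for mesenchyme, 0.80 for miR-130 and miR-301, 0.52 for miR-15 to miR-107, 0.72 for miR-181 and 0.32 for hypoxia. In the authors' deposited table they became -0.82 for miR-302 and miR-367, 0.62 for miR-125, miR-99 and miR-100, 0.53 for miR-200, -1.14 for the repeat-rich families (miR-466, miR-467, miR-669 and miR-297), 0.51 for the neural list, -0.37 for endoderm, 1.06 for miR-130 and miR-301, 1.21 for miR-181 and -2.66 for miR-29. With local background they became 0.19 for miR-302 and miR-367, -0.053 for miR-125, miR-99 and miR-100 and -0.38 for miR-29; with an offset of 16, 0.68 for miR-181 and -1.25 for miR-29; with the negative control limit, 0.71 for miR-181. Against PKM1 KI ES they became -1.06 for miR-302 and miR-367, 0.27 for let-7, -0.088 for the repeat-rich families and -0.42 for miR-29. The r between arms was 0.037 with local background, 0.36 in the authors' table and -0.070 without the repeat-rich and miR-290-295 hairpins.

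Of 77 named miRNAs with a measured difference, recomputed 616 times in all, 455 values moved by less than the SD of the ES arrays and 155 by more. Of those at least 1.5-fold apart as reported, the ones that changed sign were miR-1949 (0.35), miR-467d-3p (0.46) and miR-294-3p (0.46) with local background, miR-294-3p (0.047) with spike scaling, and miR-706 (0.74) and miR-669b-5p (0.12) against PKM1 KI ES. Of the smaller differences, 35 of the recomputed values changed sign, among them miR-29b-3p (0.049) and miR-3072-5p (-0.054) with local background and miR-290-5p (0.038) with spike scaling. The causes were not tested. The negative control limit leaves the named differences as they are. No paired analysis was possible because each group holds 1 array. Signal over background limits the dim miRNAs: 431 of the 654 were above the negative control limit on both arrays.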
